A study of Mus musculus with 18 samples.

Results

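The clock output transcription factors are the genes through which the circadian clock of a cell passes its rhythm on to the rest of the genome. The members described here were Dbp, Tef, Hlf, Nfil3, Ciart, Bhlhe40 and Bhlhe41, 7 of the 19597 genes measured, and they are listed by name, by a rule that sets no threshold on their values. They are read by 9 of the 39429 probes on the array, since Dbp and Bhlhe41 have 2 probes each. All 9 probes passed the filter on dim signals. Liver RNA of individual C57BL/6 male mice was hybridised to one-colour Agilent 4×44K arrays, 1 array per mouse. From 6 weeks of age the mice received a diet with 10% fat (LFD) or 60% fat (HFD). After 10 weeks on the diet a part of each diet cohort was injected intraperitoneally with methotrexate at 50 mg/kg for 5 rounds (LFD-MTX50 and HFD-MTX50), and livers were taken 1 week after the last round. The untreated LFD and HFD mice shared strain, sex, tissue and diet schedule up to the start of treatment with the treated mice. For the untreated mice the sample information gives no week of harvest, and no control injection is described. Each untreated group had 4 mice and each treated group 5. The hour of the day at which each liver was taken is not given in the sources used here, so that a difference in harvest time between mice cannot be told apart from a difference in level.

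The clock of a liver cell is a feedback loop in which the activators CLOCK and BMAL1 (gene Arntl) bind E-box sequences and drive their own repressors, so that the products rise and fall once a day. Dbp, Tef and Hlf are the PAR bZIP activators, a family of leucine zipper proteins driven by this loop. They bind D-box elements in genes of drug, lipid and bile acid metabolism. Nfil3 is a bZIP repressor that competes for the same D-boxes and is expressed in the opposite phase. Ciart (also called Chrono) and the basic helix-loop-helix factors Bhlhe40 (DEC1) and Bhlhe41 (DEC2) are themselves E-box genes and repress CLOCK and BMAL1. In liver the transcripts of Dbp and Tef are among the most rhythmic known, whereas Bhlhe40 also responds to feeding, hypoxia and other signals.

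The letters of an E-box, the sequence that CLOCK and BMAL1 bind, can be found just upstream of some of these genes. A RefSeq promoter table of build GRCm38.p6 held 6 of the 7 members, with 2 starts for Tef, and the 250 bases before each start were searched for an exact E-box on both strands (CACGTG, which reads the same on both). The 4 promoters that hold it are shown in the direction of transcription, 5′ to 3′, with the E-box in capitals: Ciart at chr3:95882229-95882478 on the minus strand, Tef start 1 at chr15:81802423-81802672 and Tef start 2 at chr15:81811164-81811413 on the plus strand, and Bhlhe41 at chr6:145865421-145865670 on the minus strand.
Ciart: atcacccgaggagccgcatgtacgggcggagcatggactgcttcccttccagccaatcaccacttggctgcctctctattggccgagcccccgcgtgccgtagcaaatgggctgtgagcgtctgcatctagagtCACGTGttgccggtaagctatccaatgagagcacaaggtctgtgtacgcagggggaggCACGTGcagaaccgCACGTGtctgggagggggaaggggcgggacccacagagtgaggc
Tef start 1: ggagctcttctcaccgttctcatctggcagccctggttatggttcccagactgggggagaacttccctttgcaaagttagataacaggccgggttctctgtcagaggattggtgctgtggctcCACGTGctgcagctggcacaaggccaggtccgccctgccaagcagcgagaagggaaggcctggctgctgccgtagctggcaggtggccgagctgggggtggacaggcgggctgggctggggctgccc
Tef start 2: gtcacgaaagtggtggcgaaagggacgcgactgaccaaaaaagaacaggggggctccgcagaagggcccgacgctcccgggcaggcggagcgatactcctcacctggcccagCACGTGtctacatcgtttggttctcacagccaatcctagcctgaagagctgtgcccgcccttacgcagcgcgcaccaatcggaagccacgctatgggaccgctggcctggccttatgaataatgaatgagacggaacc
Bhlhe41: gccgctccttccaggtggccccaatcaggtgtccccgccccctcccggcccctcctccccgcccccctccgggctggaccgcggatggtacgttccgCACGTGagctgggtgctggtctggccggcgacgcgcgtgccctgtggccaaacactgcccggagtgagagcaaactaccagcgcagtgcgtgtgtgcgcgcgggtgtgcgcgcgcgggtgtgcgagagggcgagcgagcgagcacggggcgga
Ciart carried 3 E-boxes, which begin 116, 58 and 44 bases before its start, and the other 3 promoters carried 1 each, beginning 127 bases (Tef start 1), 138 bases (Tef start 2) and 153 bases (Bhlhe41) before the start. Of all 32851 promoters in the table, 6.02% hold a CACGTG in the same window. The windows of Dbp, Hlf and Nfil3 held none of the searched motifs. These were the E-box, the variant CACGTT (in 3.85% of all promoters), the D-boxes TTATGTAA (0.82%) and TTACGTAA (0.11%) and the ROR response element (0.49%), each on both strands. No member held a motif other than CACGTG in this window. A match is a description of the letters and says nothing about binding.

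A level is given here as the log2 of a probe's intensity relative to the 75th percentile of its array, so that 0 is the 75th percentile and a difference of 1 is 2-fold. Groups were compared with limma in 1 model of all 18 arrays, with Benjamini-Hochberg adjustment over the 35735 kept probes, and a gene was called at an adjusted p below 0.05 on its brightest probe. The slides bear on every result. The 4 LFD arrays fill 1 of the 6 slides, so for comparisons with LFD the slide and the group cannot be told apart. The same holds between the treated groups, with LFD-MTX50 on slides 2 and 3 and HFD-MTX50 on slides 5 and 6. Only HFD and HFD-MTX50 share a slide, with 2 untreated mice (numbers 3 and 4) and 2 treated mice (numbers 1 and 2). When slide entered as a random block, no member passed in any comparison, and the share of all genes that passed was 1.94% for the diet, 1.73% for methotrexate in LFD mice, 9.48% for methotrexate in HFD mice, 0.0919% between the treated groups and 6.37% for the difference between the treatment effects. The 75th percentile ran from 1203 to 2263 intensity units over the arrays, and 83.8 to 90.6% of probes lay well above background. All 8 hepatocyte markers lay above background on every array.

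LFD mouse 2 stood apart from the other LFD mice over most of these genes. Its Dbp, Tef and Ciart levels were the highest of the group and its Nfil3 and Arntl levels the lowest, each within the range of the HFD mice. The other 3 LFD mice had the 3 lowest Dbp, Tef and Ciart levels of all 18 mice. Values without it are given for the results that it moves most.

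**Figure D1:**
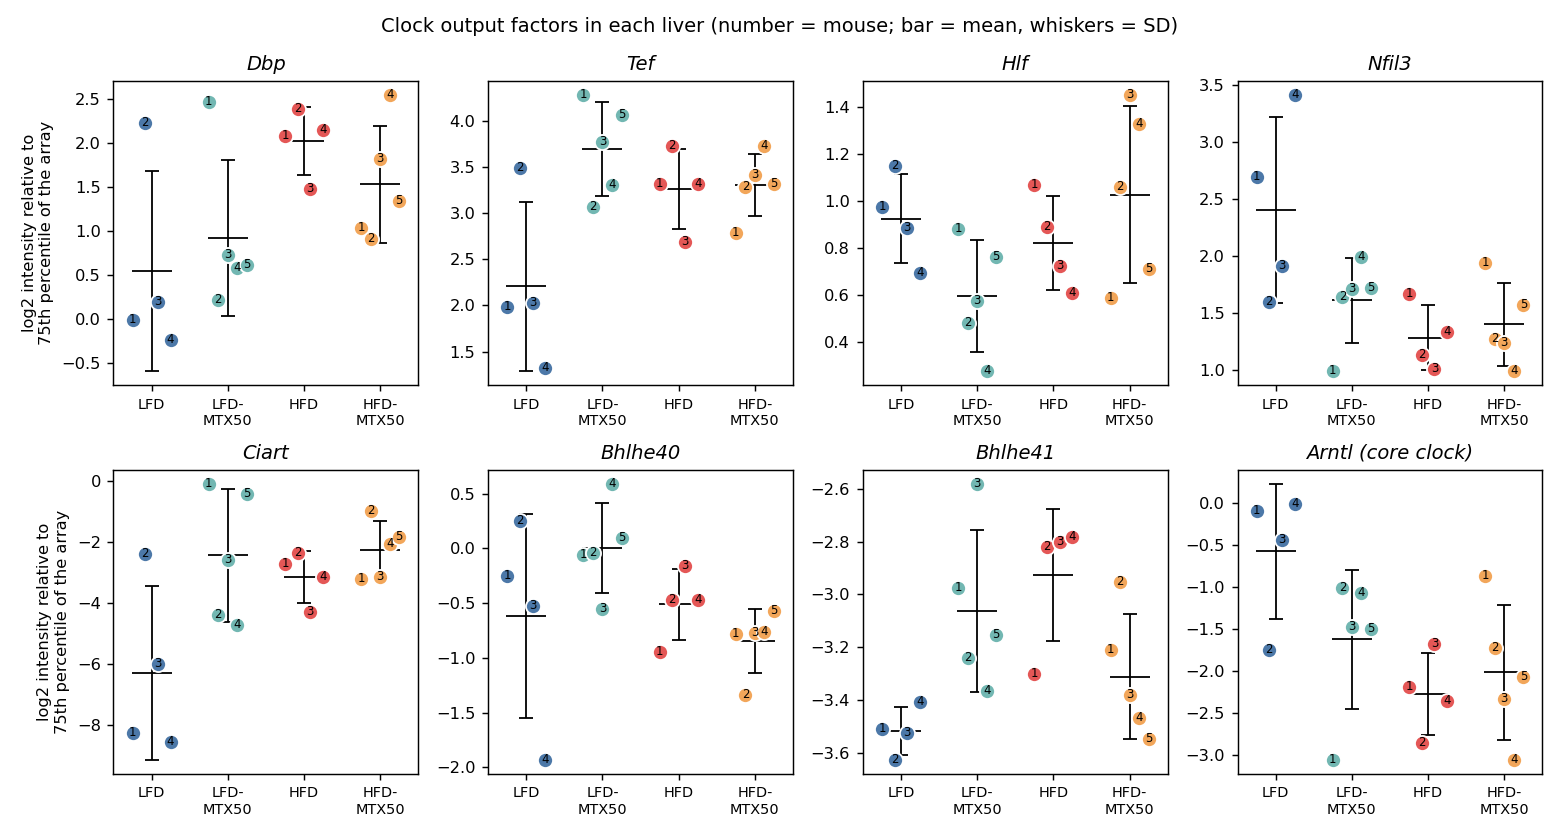
Level of each clock output factor, and of the core clock gene Arntl, in each of the 18 livers (vertical axes, log2 intensity relative to the 75th percentile of the array; scales differ between panels). Numbered points are mice, bars are group means and whiskers are SD. In LFD, mouse 2 lies at 2.23 for Dbp while mice 1, 3 and 4 lie between −0.23 and 0.19, and the HFD mice lie between 1.48 and 2.38.

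The diet comparison asked how these genes differed between HFD and LFD livers. In HFD livers the activators Dbp and Tef were higher than in LFD, by 2.79-fold and 2.08-fold, the repressor Nfil3 was lower by 2.17-fold, and Bhlhe41 was higher by 1.51-fold. These 4 of 7 members passed (3 higher, 1 lower), where 28.3% of all 19597 genes did (18% higher, 10.4% lower). The median log2 difference of the members was 0.59, against 0.08 over all genes. Ciart had a larger difference, 3.16, and did not pass. Hlf and Bhlhe40 differed by −0.10 and 0.11 and did not pass.

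Dbp read −0.01, 2.23, 0.19 and −0.23 in LFD mice 1 to 4 and 2.08, 2.38, 1.48 and 2.15 in HFD mice 1 to 4. Its means were 0.54 ± 1.13 in LFD and 2.02 ± 0.39 in HFD (SD, n = 4 each). The groups overlapped because LFD mouse 2 lay above 3 of the 4 HFD mice. The log2 difference was 1.48 ± 0.53 (SE, limma adjusted p 0.0454, exact permutation p 0.114, 2-sided). With 4 mice against 4 the smallest p such an exact test can give is 0.0286. The second Dbp probe gave 2.91 ± 0.85 (limma adjusted p 0.0205). Without LFD mouse 2 the difference on the brighter probe was 2.04 and still passed. The call was lost without any 1 of 9 other mice (LFD mice 1, 3 and 4, LFD-MTX50 mouse 3, each of the 4 HFD mice and HFD-MTX50 mouse 3), with values between 1.22 and 1.66.

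Tef, the second PAR bZIP factor, read 1.98, 3.50, 2.03 and 1.32 in LFD and 3.32, 3.73, 2.69 and 3.32 in HFD. The groups again overlapped through LFD mouse 2 alone. The means were 2.21 ± 0.92 and 3.26 ± 0.43 (SD, n = 4), and the log2 difference was 1.06 ± 0.38 (limma adjusted p 0.0448, exact permutation p 0.114). It was 1.49 without LFD mouse 2. The call was lost without any 1 of 10 mice (LFD mice 1, 3 and 4, LFD-MTX50 mouse 3, the 4 HFD mice, and HFD-MTX50 mice 2 and 3), with values from 0.76 to 1.25. Hlf, the third member of the family, did not pass between the diets. Its 4 LFD mice lay between 0.69 and 1.15 and its 4 HFD mice between 0.61 and 1.07, a difference of −0.10 ± 0.19 (limma adjusted p 0.697).

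Nfil3, the repressor at the D-boxes, ran the other way. It read 2.69, 1.60, 1.91 and 3.41 in LFD mice 1 to 4 and 1.66, 1.13, 1.01 and 1.33 in HFD mice 1 to 4. All HFD mice but the first lay below every LFD mouse, and HFD mouse 1 lay just above LFD mouse 2. Its log2 difference of −1.12 ± 0.32 passed (limma adjusted p 0.0190, exact permutation p 0.0571). Leaving out LFD mouse 4 (−0.78) or HFD mouse 3 (−1.03) lost the call, and leaving out LFD mouse 2 gave −1.39.

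Ciart, which represses CLOCK and BMAL1, spread most of all in LFD. Its levels there were −8.24, −2.37, −5.98 and −8.54, and its signal was well above background on only 2 of the 4 arrays. In HFD they were −2.71, −2.33, −4.30 and −3.15. The 3 LFD mice other than mouse 2 lay below every HFD mouse. The difference of 3.16 ± 1.21 did not pass (limma adjusted p 0.0585, exact permutation p 0.114). Since LFD mice 1 and 4 were not well above background, their measured levels are not reliable. With these 2 mice set to the lowest signal well above background on their arrays (−6.45 and −6.47), the difference was 2.19 ± 1.04 (limma adjusted p 0.117), and it was 3.18 ± 0.95 without LFD mouse 2 (limma adjusted p 0.0363).

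Bhlhe41 was the member whose HFD and LFD mice did not overlap. It read −3.51, −3.63, −3.53 and −3.41 in LFD and −3.30, −2.82, −2.80 and −2.78 in HFD. The log2 difference was 0.59 ± 0.17 (limma adjusted p 0.0180, exact permutation p 0.0286, the smallest possible). Separation of the 2 groups was common in this comparison, since 40.3% of all genes did not overlap. Its dimmer probe also separated the groups (0.56 ± 0.47) but did not pass in limma (adjusted p 0.369). On that probe HFD-MTX50 mouse 1 read −2.62 against −5.90 to −4.94 in the other 4 mice of its group. The call on the brighter probe was lost without LFD mouse 2 (0.56), HFD mouse 3 or HFD mouse 4 (0.54 to 0.56 over the 3). It was also lost in 5 of 14 other settings, among them quantile normalization and the mean of a gene's probes, with values of 0.38 to 1.04. Its relative Bhlhe40 read −0.26, 0.25, −0.53 and −1.93 in LFD and −0.94, −0.47, −0.16 and −0.47 in HFD, so that the HFD mice lay inside the LFD range (difference 0.11 ± 0.35, limma adjusted p 0.834). Without LFD mouse 4 this difference was −0.33.

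**Figure D2:**
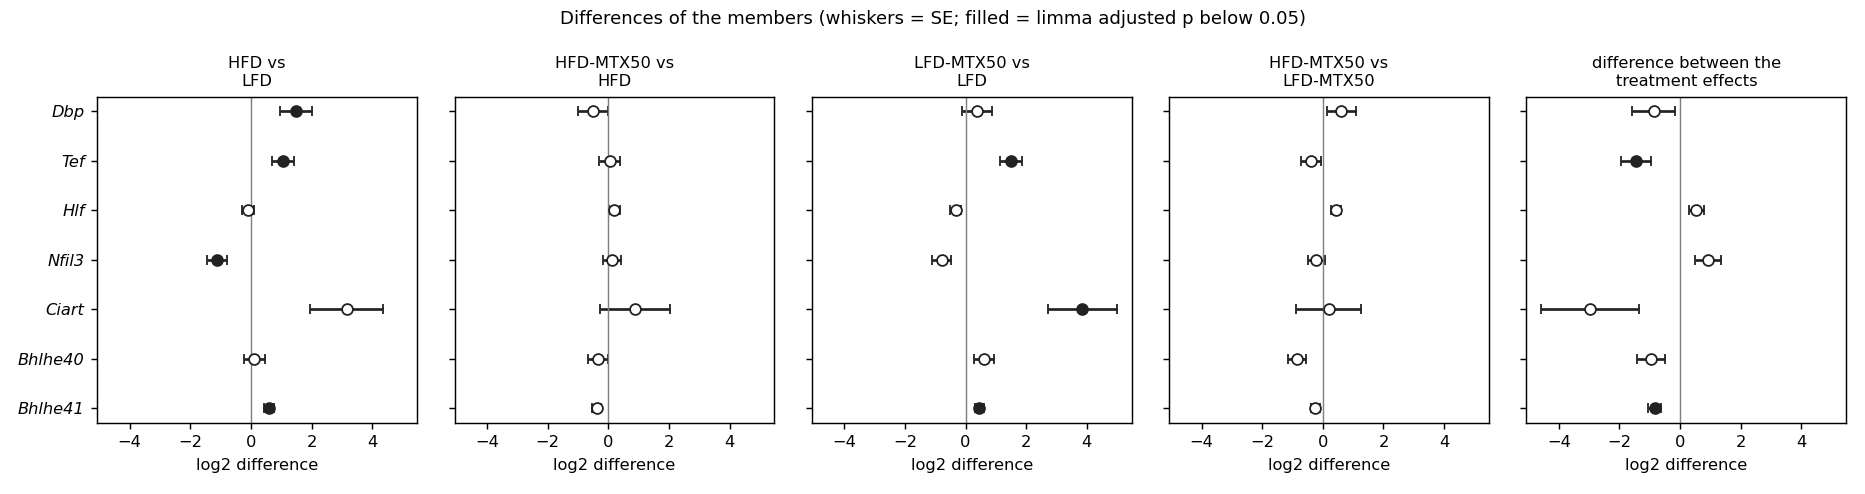
Log2 difference of each member on its brightest probe in the 5 comparisons (horizontal axes, the same scale in all panels). Whiskers are SE, and filled points passed a limma adjusted p below 0.05. The filled points number 4 for HFD vs LFD, 3 for LFD-MTX50 vs LFD, 2 for the difference between the treatment effects and 0 in the other panels.

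Methotrexate was compared with no treatment within each diet. In the HFD mice no member passed, where 11% of all genes did (4.83% higher, 6.13% lower). Bhlhe41 had an unadjusted limma p below 0.05, a threshold at which the share of all genes was not counted. No other tool or setting run here called any member, apart from Bhlhe41 without HFD mouse 1 (−0.51). Dbp read 1.03, 0.91, 1.82, 2.54 and 1.33 in HFD-MTX50, and 3 of these mice lay below all 4 HFD mice. Its difference was −0.50 ± 0.50 (limma adjusted p 0.516), and −0.84 between the mice of the shared slide. Tef read 2.79, 3.28, 3.41, 3.73 and 3.32, inside or near the HFD range (difference 0.04 ± 0.36, limma adjusted p 0.945, 0.03 on the shared slide). Bhlhe41 read −3.21, −2.95, −3.38, −3.47 and −3.55, and 3 of the 5 treated mice lay below every HFD mouse (difference −0.39 ± 0.16, limma adjusted p 0.112, −0.29 on the shared slide). Its dimmer probe gave −0.09 ± 0.44 (limma adjusted p 0.904, exact permutation p 0.929), and the dimmer probe of Dbp gave −0.53 ± 0.81 (limma adjusted p 0.681).

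The remaining members overlapped between HFD and HFD-MTX50. Ciart was −3.19, −0.97, −3.15, −2.04 and −1.84 in HFD-MTX50, a difference of 0.88 ± 1.15 (limma adjusted p 0.623), and 1.64 on the shared slide. Nfil3 lay between 0.99 and 1.94 (difference 0.12 ± 0.30), Hlf between 0.59 and 1.45 (0.20 ± 0.18) and Bhlhe40 between −1.34 and −0.57 (−0.34 ± 0.33). On the shared slide those 3 differences were 0.43, 0.16 and −0.75. None of the 9 probes passed with the slide as a fixed block.

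In the LFD mice methotrexate went with higher Tef, Ciart and Bhlhe41. These 3 of 7 members passed, all higher, where 28.1% of all genes passed (17.6% higher, 10.5% lower). The median log2 difference of the members was 0.45, against 0.10 over all genes. This comparison and HFD vs LFD share the 4 LFD mice, so the values of the 2 comparisons are not independent.

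Tef read 4.28, 3.07, 3.77, 3.30 and 4.06 in LFD-MTX50 mice 1 to 5, and 3 of the 5 lay above every LFD mouse. Its mean rose from 2.21 ± 0.92 (SD, n = 4) to 3.70 ± 0.51 (SD, n = 5), 2.81-fold on the linear scale (log2 difference 1.49 ± 0.36, limma adjusted p 0.00839, exact permutation p 0.0317). This call remained without any 1 of the 18 mice, with differences between 1.20 and 1.92. It was lost in 4 of 14 other settings, among them normexp and the methods' t-test, with values of 1.19 to 1.54. With 4 mice against 5 the smallest exact p is 0.00794.

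Ciart read −0.07, −4.39, −2.57, −4.72 and −0.40 in LFD-MTX50, well above background on all 5 arrays. Every treated mouse lay above the 3 LFD mice other than mouse 2, and mice 1 and 5 lay above all 4. The log2 difference was 3.85 ± 1.15 (limma adjusted p 0.0217, exact permutation p 0.0794). With the 2 LFD mice that were not well above background at their floor it was 2.89 ± 0.99 (limma adjusted p 0.0382), and 3.87 ± 0.91 without LFD mouse 2 (limma adjusted p 0.0161). The call was lost without LFD mouse 1, LFD mouse 4 or LFD-MTX50 mouse 1 (limma adjusted p 0.0523 to 0.0695).

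Bhlhe41 read −2.98, −3.24, −2.58, −3.37 and −3.15, each above all LFD mice. The rise was 1.37-fold (log2 difference 0.45 ± 0.16, limma adjusted p 0.0417, exact permutation p 0.0159). The dimmer probe separated the groups too (0.80 ± 0.44, limma adjusted p 0.172, exact permutation p 0.00794), where 29.1% of all genes did not overlap. The call on the brighter probe was lost without any 1 of 7 mice (LFD mice 1 to 4, LFD-MTX50 mice 1 and 3, and HFD mouse 2), with values between 0.33 and 0.49. It was also lost in 7 of 14 other settings, among them quantile normalization and scaling to the median, with values of 0.25 to 1.23.

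Dbp did not pass in these mice. It read 2.46, 0.21, 0.72, 0.58 and 0.61 in LFD-MTX50, so that 1 mouse lay at the level of HFD and the other 4 lay between the low LFD mice and LFD mouse 2. The difference was 0.37 ± 0.50 (limma adjusted p 0.587) on the brighter probe and 1.84 ± 0.81 (limma adjusted p 0.0913) on the dimmer one. Without LFD mouse 2 the first was 0.93, and without LFD-MTX50 mouse 1 it was −0.01. Nfil3 read 0.99, 1.64, 1.71, 1.99 and 1.72, a difference of −0.79 ± 0.30 (limma adjusted p 0.0595), which passed without LFD mouse 2 (−1.06) or LFD-MTX50 mouse 4 (−0.89) and was −0.45 without LFD mouse 4. Hlf lay between 0.28 and 0.88 (−0.33 ± 0.18) and Bhlhe40 between −0.55 and 0.59 (0.62 ± 0.33), and neither passed. Without LFD mouse 4 the difference of Bhlhe40 was 0.18.

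The treatment effect differed between the diets for Tef and Bhlhe41. The difference between the treatment effects (the HFD effect minus the LFD effect, on the log2 scale) was −1.45 ± 0.50 for Tef (limma adjusted p 0.0422) and −0.84 ± 0.22 for Bhlhe41 (limma adjusted p 0.0149), the 2 members past the threshold where 26.8% of all genes passed (8.66% higher, 18.1% lower). Bhlhe41 rose with methotrexate in LFD (0.45) and had a difference of −0.39 in HFD. Its call remained without any 1 of the 18 mice (−0.96 to −0.72). It was lost in 3 of 11 other settings (normexp, slide as a random block and the mean of a gene's probes), with values of −0.87 to −0.50. For Tef the call was lost without any 1 of 12 mice, namely LFD mice 1, 3 and 4, LFD-MTX50 mice 1, 3 and 5, mice 1, 2 and 4 of HFD, and mice 1, 3 and 5 of HFD-MTX50, with values between −1.47 and −1.15. Ciart had −2.97 ± 1.62, which passed without LFD mouse 2 when the 2 below-background LFD arrays kept their measured levels (−4.27) but not when they were set to the floor (−2.99, limma adjusted p 0.0925). Hlf (0.53 ± 0.25) passed without HFD-MTX50 mouse 1 (0.64). Dbp (−0.87 ± 0.71), Nfil3 (0.91 ± 0.43) and Bhlhe40 (−0.96 ± 0.47) did not pass. Without LFD mouse 2 the value for Dbp was −1.43, and without LFD mouse 4 those of Nfil3 and Bhlhe40 were 0.57 and −0.52. The second probes gave −2.37 ± 1.14 for Dbp (limma adjusted p 0.125) and −0.90 ± 0.62 for Bhlhe41 (limma adjusted p 0.288).

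Between the treated groups no member passed, where 16.1% of all genes did (7.37% higher, 8.75% lower). These groups share no slide, so that the slide and the group cannot be told apart here. Hlf and Bhlhe40 had an unadjusted limma p below 0.05, a threshold at which the share of all genes was not counted. Bhlhe40 was lower in HFD-MTX50 than in LFD-MTX50 in every mouse (−0.78, −1.34, −0.78, −0.76 and −0.57 against −0.06, −0.05, −0.55, 0.59 and 0.09), where 6.13% of all genes did not overlap. Its difference was −0.85 ± 0.31 (limma adjusted p 0.0683, exact permutation p 0.00794, the smallest possible), and it passed without LFD mouse 4, at the same value. Hlf differed by 0.43 ± 0.17 (limma adjusted p 0.0796) and passed without HFD-MTX50 mouse 1 (0.54). On the dimmer probes Dbp differed by 0.53 ± 0.76 and Bhlhe41 by −0.34 ± 0.42.

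Over the 4 groups the order of the mean levels differed from member to member. Dbp fell from HFD (2.02 ± 0.39) through HFD-MTX50 (1.53 ± 0.67) and LFD-MTX50 (0.92 ± 0.88) to LFD (0.54 ± 1.13), and no 2 neighbours in this order differed by more than the larger SD. Tef was highest in LFD-MTX50 (3.70 ± 0.51), followed by HFD-MTX50 (3.31 ± 0.34), HFD (3.26 ± 0.43) and LFD (2.21 ± 0.92), and only the last step exceeded the larger SD. Ciart had the same kind of order, with HFD-MTX50 (−2.24 ± 0.94), LFD-MTX50 (−2.43 ± 2.17) and HFD (−3.12 ± 0.85) above LFD (−6.28 ± 2.85), and again only the last step exceeded it. Nfil3 was highest in LFD (2.40 ± 0.82), then LFD-MTX50 (1.61 ± 0.37), HFD-MTX50 (1.40 ± 0.36) and HFD (1.28 ± 0.29), with no step above the larger SD. LFD was thus the lowest group for Dbp, Tef, Ciart and Bhlhe41 and the highest for Nfil3.

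The spread among mice of 1 group was shared between genes. Deviations from the group mean were correlated over the 18 mice for the 28 pairs of the 7 members and Arntl, with 100000 permutations within groups and adjustment over the 28 pairs. The 3 PAR bZIP activators and Ciart rose and fell together from mouse to mouse, and Nfil3 and Arntl ran opposite to them. All 15 pairs among these 6 genes passed on Pearson's r, and 12 of them on Spearman's rho as well. None of the 13 pairs with Bhlhe40 or Bhlhe41 did, the largest size of r among them being 0.528.

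Tef and Arntl were the most closely tied pair on Spearman's rho (−0.920), and Dbp and Arntl on Pearson's r. Their r was −0.937 and their rho −0.917 (permutation p 1e-05, the smallest the permutations can give, and 4e-05; adjusted 0.00014 and 0.000373), and r was −0.894 without the 2 mice whose Dbp deviated farthest from the median. Mice with the lowest Arntl, such as HFD-MTX50 mouse 4 (−3.05) and LFD-MTX50 mouse 1 (−3.05), had the highest Dbp (2.54 and 2.46), and LFD mice 1 and 4, with Arntl at −0.10 and −0.01, had the 2 lowest. Dbp and Tef rose together (r 0.866, rho 0.905, permutation p 2e-05 for each, adjusted 0.000187 and 0.00028, r 0.773 without the 2 farthest mice). Tef and Ciart did so too (r 0.883, rho 0.800, permutation p 0.00021 and 0.001, adjusted 0.00147 and 0.0056, r 0.791 without the 2 farthest).

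**Figure D3:**
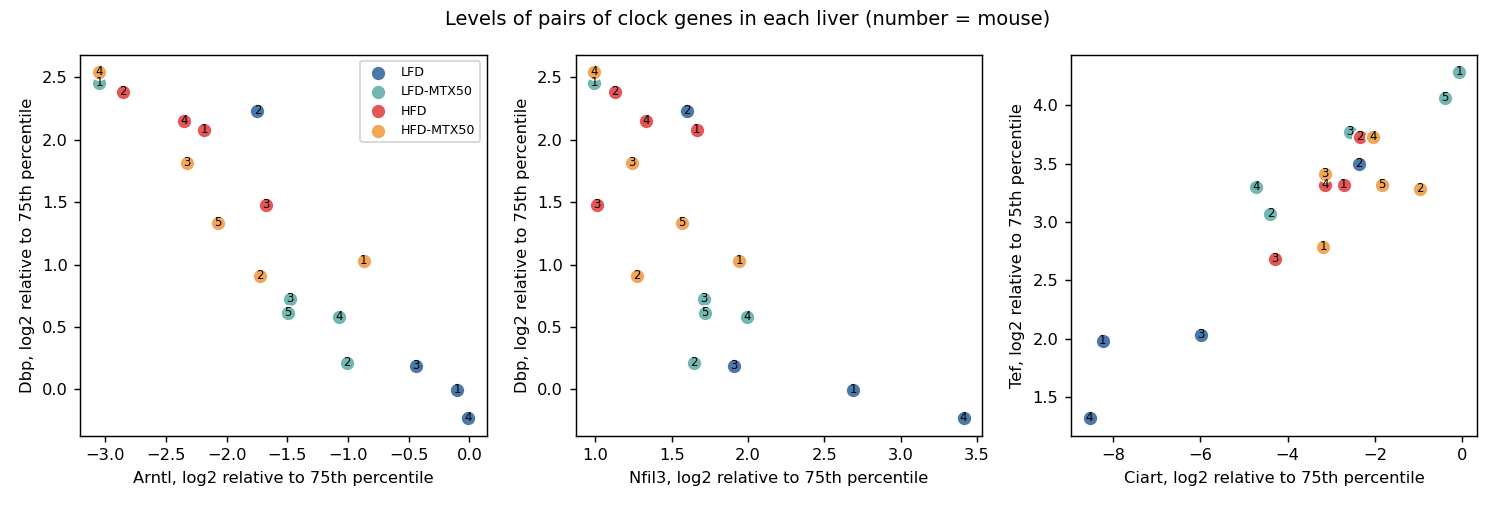
Levels of Dbp against Arntl, Dbp against Nfil3 and Tef against Ciart in each of the 18 livers (both axes log2 intensity relative to the 75th percentile; numbered points are mice, coloured by group). Mice of all 4 groups lie along a common band in each panel, falling for Dbp against Arntl (r −0.937 within groups) and for Dbp against Nfil3 (r −0.695) and rising for Tef against Ciart (r 0.883).

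The opposite course of Nfil3 was looser. Dbp and Nfil3 had r −0.695 and rho −0.529 (permutation p 0.00776 and 0.0497, adjusted 0.0212 and 0.0993), and r was −0.463 without the 2 farthest mice, LFD mouse 2 and LFD-MTX50 mouse 1. Nfil3 and Arntl went together (r 0.725, rho 0.600, permutation p 0.00149 and 0.0172, adjusted 0.00604 and 0.0400, r 0.693 without the 2 farthest). Hlf, which passed in no comparison, was tied to the others within groups. Its r was 0.613 with Dbp (rho 0.602, permutation p 0.00832 and 0.0131, adjusted 0.0212 and 0.0400), 0.648 with Tef and −0.699 with Arntl. Without the 2 mice farthest from the median, 11 of the 15 pairs kept an r of at least 0.5 in size with the same sign.

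LFD mouse 2 carried a part of these relations. Without it, 9 of the 28 pairs passed in place of 15, among them Dbp with Arntl (r −0.934), Tef with Arntl (r −0.839) and Dbp with Tef (r 0.762). With the mean of the mice of a group on each slide removed, and LFD-MTX50 mouse 5 left out as the only array on its slide, 13 of the 28 pairs passed, and r was −0.937 for Dbp with Arntl and 0.921 for Tef with Ciart. After normexp background correction 9 pairs passed.

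**Figure D4:**
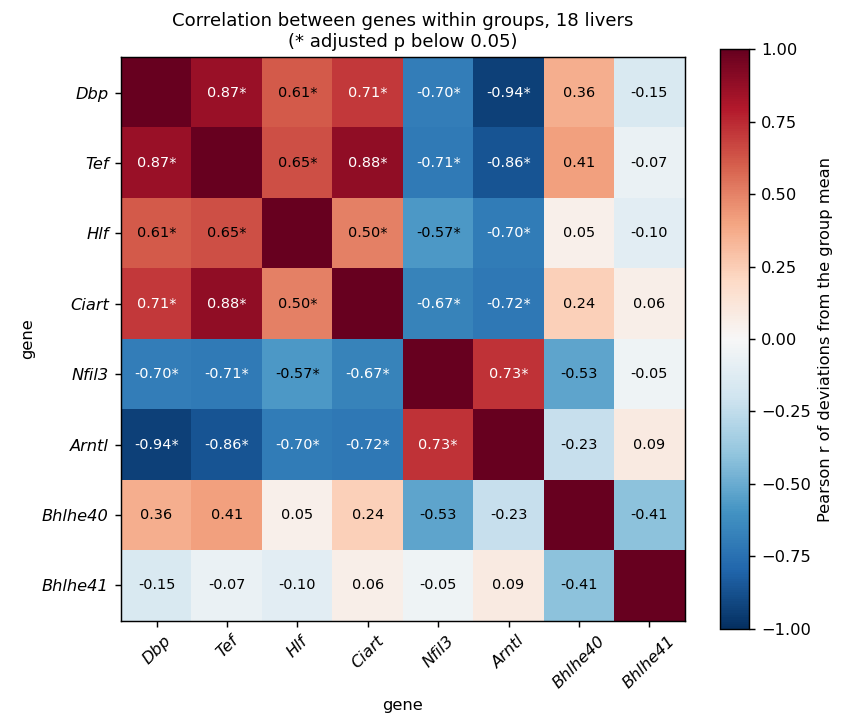
Pearson r between genes of the deviations from the group mean over 18 livers, for the 7 members and Arntl (colour from −1 to 1). Asterisks mark pairs with a permutation p below 0.05 after adjustment over 28 pairs, which are the 15 pairs among Dbp, Tef, Hlf, Ciart, Nfil3 and Arntl and none with Bhlhe40 or Bhlhe41.

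The core clock genes themselves, which drive the members, were compared in the same way. In HFD vs LFD, 6 of 18 passed (1 higher, 5 lower, 33.3% against 28.3% of all genes), with a median log2 difference of −0.27. Arntl fell by 1.69 ± 0.49 (limma adjusted p 0.0199), the repressor Cry1 by 1.65 ± 0.33 (limma adjusted p 0.00460) and Clock by 0.61 ± 0.15 (limma adjusted p 0.00956). Csnk1e, Btrc and Rora passed with differences of 0.38, −0.46 and −0.45. The differences of Nr1d1 (0.94 ± 0.35, limma adjusted p 0.0503), Npas2 (0.42), Nr1d2 (0.48), Per3 (0.34), Per2 (0.10), Per1 (−0.27) and Cry2 (−0.26) did not pass. Cry2 was measured on 2 of the 4 HFD arrays, and the fit leaves out the other HFD arrays. Arntl, the opposite of Dbp in the individual mice, read −0.10, −1.75, −0.44 and −0.01 in LFD and −2.19, −2.86, −1.68 and −2.35 in HFD, with LFD mouse 2 again among the HFD mice. Without that mouse the difference of Arntl was −2.09 ± 0.48 (limma adjusted p 0.0163).

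Methotrexate was read on the core clock list within each diet. In LFD-MTX50 vs LFD, 5 of 18 passed (27.8% against 28.1% of all genes). Among them, Nr1d2 (0.70 ± 0.25) and Csnk1e (0.36) were higher, and Cry1 (−0.91 ± 0.31) and Clock (−0.51 ± 0.14) were lower. The difference of Arntl was −1.05 ± 0.47 (limma adjusted p 0.0962) and passed without LFD mouse 2 (−1.44 ± 0.46, limma adjusted p 0.0442). The differences of Nr1d1 (0.77), Npas2 (0.40), Per1 (−0.20), Per3 (0.08), Per2 (−0.02) and Cry2 (0.0048) did not pass. In HFD-MTX50 vs HFD only Btrc passed (0.56 ± 0.15, 5.56% of the list against 11% of all genes), and Cry1 had a difference of 0.76 ± 0.31 (limma adjusted p 0.112). The difference between the treatment effects passed for 7 of 18 (38.9% against 26.8%), with Cry1 at 1.66, Nr1d1 at −1.39, Btrc at 0.96 and Clock at 0.83. A random slide block left 1 gene of the list in HFD vs LFD, 0 in LFD-MTX50 vs LFD and 1 in the difference between the effects.

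**Figure D5:**
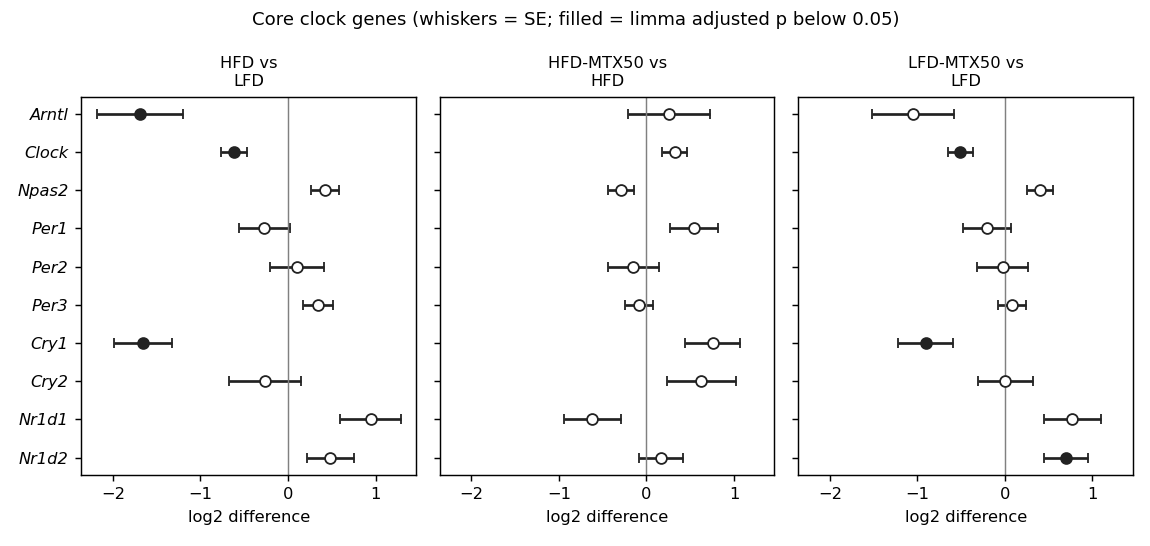
Log2 difference of 10 core clock genes for the diet and for methotrexate within each diet (horizontal axes, the same scale in all panels). Whiskers are SE, and filled points passed a limma adjusted p below 0.05. Arntl, Clock and Cry1 are filled in HFD vs LFD, Clock, Cry1 and Nr1d2 in LFD-MTX50 vs LFD, and none of the 10 in HFD-MTX50 vs HFD.

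Genes known as targets of D-boxes or of the PAR bZIP factors were read as a list. Of 19 tested, 2 passed for the diet (10.5%, 28.3% of all genes), 0 for methotrexate in HFD mice (11% of all genes) and 2 for methotrexate in LFD mice (10.5%, 28.1% of all genes). Over the other settings these counts ran from 0 to 4, 0 to 1 and 0 to 5, and the median log2 differences were −0.01, −0.09 and −0.02. Cyp2b10, a drug-metabolising cytochrome P450, was higher in HFD vs LFD (2.24 ± 0.73, limma adjusted p 0.0322) while Rora was lower. Por, the reductase that supplies cytochromes P450 with electrons, was higher in LFD-MTX50 vs LFD (1.18 ± 0.41), and Pdxk, the pyridoxal kinase, was lower (−0.72 ± 0.15). Acot2 was the 1 gene to pass between the treated groups (1.49). Cyp2a5 was listed and not tested. In the LFD-MTX50 mice, where Tef rose, the other members of the list therefore had differences from −1.18 to 1.57 that did not pass, other than Por and Pdxk.

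Other rhythmic liver genes did not pass in HFD vs LFD (0 of 18 in limma, from 0 to 5 over the other settings), where 28.3% of all genes did. In LFD-MTX50 vs LFD 6 of 18 passed (33.3%, against 28.1% of all genes). Elovl3, a fatty acid elongase, was lower (−6.50 ± 0.61), Lpin1, a phosphatidate phosphatase, was higher (3.20 ± 0.44), and Usp2 (2.24 ± 0.81) and Mfsd2a (1.35 ± 0.41) were higher too. In HFD-MTX50 vs HFD 2 passed (11.1%, against 11% of all genes), Tspan4 (0.91) and Pnpla2 (0.76). The genes whose levels followed each member most closely over the 18 mice were partly of this kind. Among 19394 genes with a value on all arrays, Dbp was most like Slc5a6 (r 0.925), Wee1 (0.888) and Pcsk4 (0.789), Tef like Dedd2 (0.849), Nr1d2 (0.841) and Usp2 (0.840), and Ciart like Usp2 (0.913) and Gm2109 (0.863). Nfil3 was most like Ubqln1 (0.899), Fbxo22 (0.854) and Arntl (0.853), Hlf like 1600025M17Rik (0.942), D930007P13Rik (0.930) and Olfr406 (0.927), Bhlhe40 like Hnrnpdl (0.858), Klf16 (0.707) and Cyth1 (0.700), and Bhlhe41 like Ccna1 (0.941), Igf2os (0.940) and Adgrl1 (0.939). These are correlations of levels that include the differences between groups, and the mice share slides.

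Signals known to act on the members were read through lists of their target genes, beside 28.3%, 11% and 28.1% of all genes that passed for the diet, for methotrexate in HFD mice and for methotrexate in LFD mice. Genes induced by glucocorticoids, hormones that act on Per1 and other clock genes, passed in 1 of 12 for the diet (Sgk1 lower, −1.15), in 2 of 12 for methotrexate in HFD mice (Mt2 and Mt1 higher, 4.95 and 4.46) and in 4 of 12 for methotrexate in LFD mice (Mt2 5.15, Mt1 4.84, Zbtb16 1.95 and Pck1 1.31, all higher). Hypoxia induced genes, the class that includes Bhlhe40, passed in 3, 1 and 3 of 12 in the same order (25%, 8.33% and 25%), close to the shares of all genes. Ndrg1 (−1.02), Pdk1 (−0.73) and Vegfa (−0.52) were lower in HFD vs LFD, Ndrg1 was higher in HFD-MTX50 vs HFD (1.02), and Ankrd37 (1.83), Bnip3 (1.33) and Vegfa (0.36) were higher in LFD-MTX50 vs LFD. Fasting induced genes passed in 3, 3 and 5 of 12 (25%, 25% and 41.7%). In LFD-MTX50 vs LFD, Lpin1 (3.20), Igfbp1 (2.77) and Pck1 (1.31) were higher while Pdk4 (−1.28) was lower, as was 1 more gene, G6pc. In HFD-MTX50 vs HFD, G6pc (−1.14) and Irs2 (−0.40) were lower and Ppargc1a (0.76) was higher, and in HFD vs LFD, Ppargc1a was lower (−1.20) and Cpt1a (0.60) and Irs2 (0.36) higher.

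Markers of other cells moved with the groups as well. The summed level of 4 adipocyte markers, in multiples of the 75th percentile, was 0.844 to 7.83 in HFD and 0.307 to 0.459 in LFD. Of the 4, 3 passed higher in HFD vs LFD. The mean log2 level of Cidea was 1.21 in HFD and −2.95 in LFD, and that of Lep −0.50 and −2.79. For Plin1 the means were −5.06 and −5.70, and for Adipoq, which did not rise, −4.50 and −4.46. The sum was 0.412 to 0.736 in LFD-MTX50, where again 3 of the 4 passed higher than in LFD. The sum of 6 T, NK and B cell markers was 25.03 to 27.1 in HFD and 20.2 to 22.4 in LFD, and 2 passed. Of 6 Kupffer cell, 5 endothelial, 5 stellate, 5 cholangiocyte and 4 pancreas markers, at most 1 passed in a comparison of diet or treatment. The sum of 6 neutrophil markers was 1.20 to 50.7 in HFD-MTX50 against 1.03 to 2.13 in HFD, and 1.12 to 7.13 in LFD-MTX50 against 1.03 to 1.33 in LFD. Of the 6, 0 passed with methotrexate in HFD mice and 1 passed, higher, in LFD mice. The sum of 5 erythroid markers was 1.02 to 1.58 in LFD-MTX50 against 15.8 to 22.7 in LFD, and 1.36 to 54.7 in HFD-MTX50 against 10.4 to 22.5 in HFD. Of the 4 erythroid markers tested, 2 passed lower with methotrexate in LFD mice and 1 passed higher in HFD mice. A sum of linear levels is led by its brightest markers and does not show a shift of the whole list. The sum of the 8 hepatocyte markers was 898 to 1045 in HFD, 980 to 1150 in LFD, 1085 to 1302 in LFD-MTX50 and 786 to 1136 in HFD-MTX50. In HFD vs LFD 2 of the 8 passed, both lower (Cps1 −1.24 and Hnf4a −0.55), and 1 passed higher with methotrexate in each diet. The part of these cells in the results for the clock output factors was not tested, and in bulk RNA fewer cells of a type and less RNA per cell cannot be told apart.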

How the data were processed

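Each of 18 livers was hybridised to its own single-colour Agilent array. The authors scanned the arrays with Agilent Feature Extraction 10.7.3.1, per the file headers, and deposited spot intensities on a linear scale, background-subtracted and detrended within each array but not scaled between arrays. A second deposited table, an alternative here, gives the same background-subtracted intensities in rounded form. The labels name Trizol, RNeasy and a low RNA input kit, and the methods RNeasy and the Quick Amp kit.

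For each array, log2 of the processed intensity was taken and the array's 75th percentile (non-control spots) subtracted. Outlier spots (124 to 294 per array) were left out, and spots of a probe were averaged. Probes well above background on at least 4 arrays were kept (35735 of 39429, of which 344 lack a value on some array). Gene names came from RefSeq (GRCm38.p6), which matched 28025 (71.1%), giving 19597 genes with a kept probe. A gene is read on its brightest kept probe.

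limma 3.58.1 (R 4.3.3) fitted 1 model of the 4 groups. Counts of members called in it are read beside the share of all genes called. Exact permutation tests and permutations within groups are 2-sided. Correlations were computed in Python 3.11.15. Tests on simulated data preceded the fits. Precision is limited by the 4 or 5 mice per group.

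The members are fixed by name with no threshold on their values, but they, the gene lists and the alternatives were chosen with earlier results of these data known. Genes named are every member with every probe, at most 4 genes of a list per comparison (those past the adjusted p, by size), 10 core clock genes in every comparison of diet or treatment, and the 3 genes most correlated with each member. Some genes that this rule selects are not reported here. Csnk1e, Rora as a core clock gene, and G6pc in LFD mice fall outside the rule and were named after their values were seen. The 6 lists are core clock, D-box and PAR bZIP targets, other rhythmic liver genes, and genes induced by glucocorticoids, hypoxia and fasting.

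The alternatives were normexp (offset 50, on the median signal, as the files hold no mean signal), quantile normalization, the median in place of the 75th percentile, other filters, the deposited table, a trend with robust variances, the 2 groups alone, the methods' t-test, slide and replicate blocks, the mean of a gene's probes, a 2-fold threshold and leaving out each mouse. A planned comparison of protein sequences was not run, and Bhlhe40 was not in the promoter table.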

Additional observations from a re-analysis of the deposited data

Results flagged for a closer look

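Among 40 groups of mice looked at (the 9 member probes and Arntl in each of the 4 groups), 4 held a mouse whose gap to its nearest neighbour was large for the range of its group, where chance gives about 1 in 20 groups. LFD-MTX50 mouse 1 did so for Dbp (highest, 2.46, the others between 0.21 and 0.72) and for Arntl (lowest, −3.05, the others between −1.50 and −1.01). HFD mouse 1 did so for Bhlhe41 (lowest, −3.30, the others between −2.82 and −2.78), and HFD-MTX50 mouse 2 for Bhlhe40 (lowest, −1.34, the others between −0.78 and −0.57). The gap of LFD mouse 2 for Dbp, 0.8285 of the range of its group, was just under the limit of 0.829 for 4 mice.

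The effect of methotrexate differed between the diets for Tef, by −1.45 on the log2 scale, and for Bhlhe41, by −0.84, each as the HFD effect minus the LFD effect in limma. These are 2 of the 7 members, where 26.8% of all genes passed, so the count is near the share of all genes. The Tef call was lost without any 1 of 12 mice, and the second Bhlhe41 probe did not pass (limma adjusted p 0.288). Both differences rest on the LFD arrays, which lie on a slide of their own.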

How the results depend on the processing

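Of the 9 member calls over the 5 comparisons, none changed sign under any alternative, and 188 of 281 recomputed values kept the call. All were lost with the slide as a random block, which left 0 members in HFD vs LFD, 0 in LFD-MTX50 vs LFD and 0 in the difference between the treatment effects, in place of 4, 3 and 2. The share of all genes that passed then fell to 1.94, 1.73 and 6.37%, from 28.3, 28.1 and 26.8%. In the same order normexp gave 0, 1 and 0 members, with 0.0102, 1.73 and 0% of all genes. Both losses thus ran over all genes. For the diet and for methotrexate in LFD mice, the methods' t-test gave 1 and 0 members after adjustment, with 35.7 and 28.5% of all genes. At the methods' threshold (p up to 0.015 and 2-fold) it gave 0 and 0, with 2.61 and 3.84% of all genes. Scaling to the median gave 2 in HFD vs LFD (27.8% of all genes) and 1 in the difference between the effects (25%). The replicate block gave 2 and 1 there (27.1 and 25.8% of all genes). The numbers do not pair the mice (same-numbered mice correlated at −0.314 to 0.255, above 0.1 in 7 of 25 pairs). No filter on dim probes gave 2 in HFD vs LFD (24.7% of all genes). In the difference between the effects, the mean of a gene's probes (24.4% of all genes) and a 2-fold threshold (7.94%) each gave 1. The dimmer probes of Dbp and Bhlhe41 (chosen after seeing the data) also gave 1 there. The cause was not tested. Leaving out 1 mouse gave 0 (without HFD mouse 3) to 4 members in HFD vs LFD, 0 to 1 in HFD-MTX50 vs HFD, 1 to 4 in LFD-MTX50 vs LFD, 0 to 1 in HFD-MTX50 vs LFD-MTX50 and 1 to 3 in the difference between the effects. Of 28 pairs, 9 passed the within-group correlation under normexp and 9 without LFD mouse 2 (the latter chosen after seeing the data, as was the removal of slide means, with 13), and 16 under quantile normalization, in place of 15.

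Some values that were not called changed sign. These were Tef, HFD-MTX50 vs HFD (−0.12 under normexp, −0.0694 under quantile normalization, −0.00356 under the replicate block), in the same comparison Hlf (−0.00056), Nfil3 (−0.0314) and Bhlhe41 (0.72), all of these under normexp, and of HFD-MTX50 vs LFD-MTX50 for Bhlhe41 (0.54, normexp). Leaving out 1 mouse gave −0.33 to 0.40 for Bhlhe40 in HFD vs LFD, −0.0117 to 0.93 for Dbp in LFD-MTX50 vs LFD, −0.38 to 0.78 for Ciart in HFD-MTX50 vs LFD-MTX50, and −0.15 to 0.20 for Tef and −0.0171 to 0.24 for Nfil3 in HFD-MTX50 vs HFD. The median of all genes, 0.10 in LFD-MTX50 vs LFD, was 0.47 under normexp and close to 0 (−4.46e-05) under quantile normalization. The floor for Ciart below background and Arntl without LFD mouse 2 were also chosen after seeing the data. Ciart could not be tested among probes above background on all arrays.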
